A study of Mus musculus with 18 samples.

Results

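The loci described here are those of 10 genes for AP-1 and related stress-response transcription factors, Fos, Fosb, Fosl1, Fosl2, Jun, Junb, Jund, Atf3, Batf3 and Maff. Chromatin accessibility was measured by ATAC-seq, in which a transposase cuts open DNA, in freshly sorted lung endothelial cells (ECs) of 18 FVB mice carrying a Col1α1-GFP reporter, a transgene that marks collagen-producing cells. The 4 groups were Young Sham (2 months old, PBS, n = 5), Young Bleo (2 months old, bleomycin, n = 4), Aged Sham (18 months old, PBS, n = 4) and Aged Bleo (18 months old, bleomycin, n = 5), and lungs were taken at day 30 after delivery of the agent. Per the study's methods, CD31+ cells were kept after depletion of CD45+, CD326+ and GFP+ cells, and mice of both sexes were used. Peaks of the 18 lists were merged into 47338 consensus regions, each seen in 2 samples or more. A region belonged to a locus when the nearest transcription start site (TSS) to its midpoint was that of the gene or when its midpoint lay in the gene body, which gave 48 regions of the 47338. Each region is named by its gene and the distance of its midpoint from the nearest TSS of that gene (negative upstream). The nearest TSS is a rule of position and does not show which gene a region acts on.

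AP-1 is a family of dimers of basic leucine zipper proteins. Fos, Fosb, Fosl1 and Fosl2 encode the Fos subunits, which bind DNA as partners of a Jun protein. Jun, Junb and Jund encode the Jun subunits, which can also pair with each other. Atf3 encodes a stress-induced factor that pairs with Jun proteins, Batf3 encodes a short AP-1 partner best known in dendritic cells, and Maff encodes a small Maf protein without an activation domain. AP-1 dimers bind the sequence TGAGTCA, while dimers with ATF proteins also bind the longer TGACNTCA. Fos, Fosb and Junb are classic immediate-early genes, and serum response factor switches them on through the CArG box, an A/T-rich motif flanked by CC and GG.

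The samples held between 21050 and 40883 peaks. The lists give no read totals, so depth was read from the background coverage of each library, which lay between 1.02 and 1.78 fragments and was lower in the aged groups (mean 1.16 ± 0.198 for Aged Sham and 1.21 ± 0.22 for Aged Bleo, SD) than for Young Sham (1.56 ± 0.238) and Young Bleo (1.65 ± 0.101). Aged Bleo 4 and Aged Bleo 5 had 21050 and 26886 peaks, against 29049 to 40883 in the other Aged Bleo samples. A code in the names of the lists, read here from its form as the sequencing lane, followed the groups closely. The sources used here do not explain this code. The 5 Aged Bleo libraries ran in lane 6 together with Aged Sham 4, and the 5 Young Sham libraries in lane 8 together with Young Bleo 4. Replicates 1 to 3 of both Young Bleo and Aged Sham shared lane 7. Promoters of endothelial markers were open, with 5 of 8 carrying a peak in all 18 samples (Cdh5, Kdr, Tie1, Egfl7 and Cldn5), Pecam1 in 17, Tek in 15 and Emcn in 7. None of 5 leukocyte and none of 5 epithelial marker promoters had a region, and among 5 mesenchymal markers only Pdgfra had one, in all 18 samples.

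Of the sequence motifs searched, the CArG box was the one whose share in the 48 regions was furthest from that in all regions. A CArG box lay within the 200 bp around the strongest summit in 6 of 48 regions (12.5%), compared with 0.972% of all 47338 regions. These 6 stretches of the reference (RefSeq mm10, + strand, the C57BL/6J sequence and not that of FVB) are shown with the CArG box in capitals. They lie at chr12:85463005-85463064, chr12:85486089-85486148, chr7:19310283-19310342, chr8:84980134-84980193, chr8:84976599-84976651 and chr4:95117378-95117437, in the order below.
Fos -10.9 kb: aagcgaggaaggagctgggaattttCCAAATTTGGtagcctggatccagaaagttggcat
Fos +12.2 kb: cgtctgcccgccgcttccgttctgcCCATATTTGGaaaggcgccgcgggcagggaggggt
Fosb -0.2 kb: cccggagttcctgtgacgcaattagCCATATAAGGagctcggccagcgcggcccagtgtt
Junb -1.3 kb: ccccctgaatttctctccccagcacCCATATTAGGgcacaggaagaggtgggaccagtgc
Junb +2.3 kb: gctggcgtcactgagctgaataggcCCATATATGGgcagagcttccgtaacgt
Jun -65.2 kb: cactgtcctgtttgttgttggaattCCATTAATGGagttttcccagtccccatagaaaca

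The box of Fos +12.2 kb, the strongest element of the Fos locus by fold enrichment, lay 12 bp from its summit. Those of Fosb -0.2 kb and Junb -1.3 kb lay 25 bp and 27 bp from theirs. In Jun -65.2 kb, Fos -10.9 kb and Junb +2.3 kb the box was 56 bp, 57 bp and 77 bp from the summit. All but Fosb -0.2 kb, a promoter region, were intergenic.

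The binding sequences of the factors themselves were searched in the same windows on both strands. TGAGTCA occurred in the 200 bp around the summit in 3 of 48 regions (6.25%) and in 6.69% of all regions. TGACNTCA occurred in 5 of 48 (10.4%) and in 6.61% of all regions, and CAGGAAG, the core bound by the endothelial factor ERG, in 8 of 48 (16.7%) and in 20% of all regions. The TGAGTCA sites were in Fosb -17.2 kb (chr7:19327321-19327380), in Fosb -7.0 kb (chr7:19316973-19317032) and in Fosl1 +1.1 kb (chr19:5448828-5448887, an intron). The first of these was the region that differed most clearly between groups when ranked by fold enrichment, as described below. TGACNTCA sites included those of the promoter region Jun -0.2 kb (chr4:95052234-95052293), where the motif began 45 bp before the TSS, and of Fos -1.6 kb (chr12:85472140-85472199). The matches are in capitals on the + strand of the same reference.
Fosb -17.2 kb: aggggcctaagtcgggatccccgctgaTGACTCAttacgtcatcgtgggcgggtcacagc
Fosb -7.0 kb: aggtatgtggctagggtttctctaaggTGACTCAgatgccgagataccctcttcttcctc
Fosl1 +1.1 kb: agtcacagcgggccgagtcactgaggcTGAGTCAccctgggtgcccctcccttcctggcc
Jun -0.2 kb: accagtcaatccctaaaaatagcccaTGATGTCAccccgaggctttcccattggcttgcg
Fos -1.6 kb: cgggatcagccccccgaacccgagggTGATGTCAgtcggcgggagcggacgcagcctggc

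In the 250 bases before the TSS, RefSeq promoter windows were at hand for 9 of the 10 genes, all but Fosl1 (11 windows, 3 of them of Maff). TGACNTCA was present in 3 of the 11 windows, those of Jun and Maff, against 7.49% of 32851 mouse promoter windows. CAGGAAG was present in the window of Junb, against 10.8% of all windows. None of the 11 windows held TGAGTCA or a CArG box, against 4.46% and 1.47% of all windows. With shares this low, their absence from 11 windows does not show a depletion. The CArG box shown above for the promoter region of Fosb lies upstream of the Fosb window and was not counted here.

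Regions were spread unevenly over the loci. Jun had 11 regions, Fos 10, Fosb 8, Fosl2 5, Junb, Batf3 and Maff 3 each, Atf3 and Fosl1 2 each and Jund 1. Of the 48 regions, 30 were intergenic (62.5%, compared with 34.9% of all regions), 8 lay in promoters (16.7% compared with 21.3%), 5 in introns, 4 in UTRs and 1 in an exon. A peak was present in all 18 samples in 24 regions (50%, compared with 36.8% of all regions), in 6 to 17 samples in 12 and in 2 to 5 samples in 12. Their median width was 542 bp, against 440 bp for all regions.

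**Figure D1:**
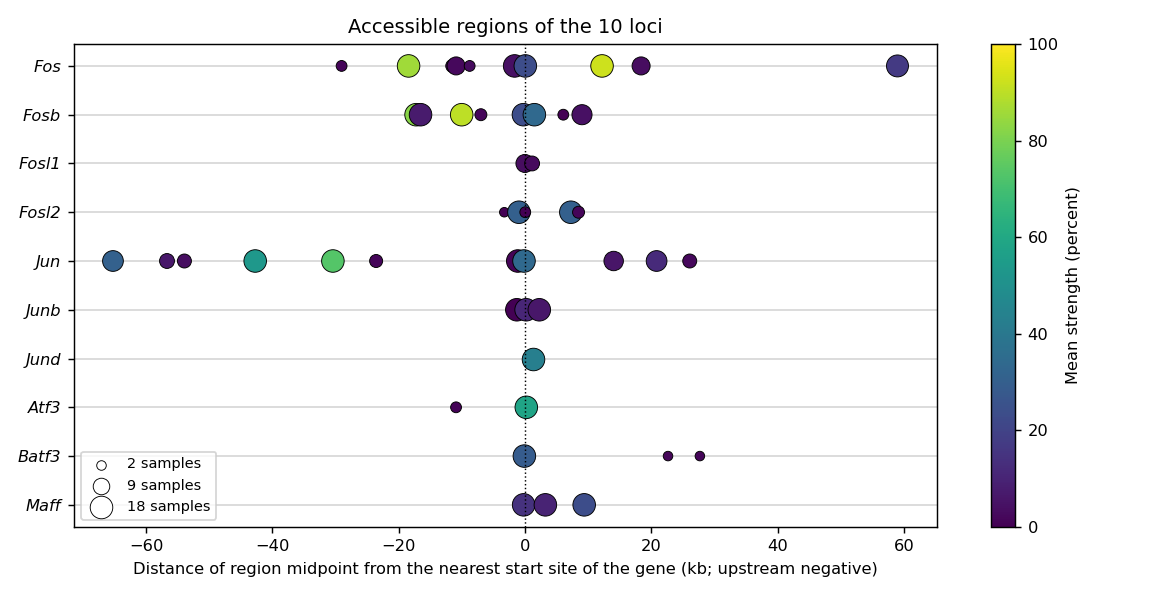
Each point is a region of a locus, placed by the distance of its midpoint from the nearest start site of the gene in kb, with its size showing the number of samples with a peak and its colour the mean strength in percent. The brightest points of Fos, Fosb and Jun lie away from the start site, at +12.2, -10.0 and -30.4 kb.

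To compare regions across libraries of unequal depth, the strength of a peak was expressed as a percentile within its own list, namely the percent of the 17432 regions with a peak in all 18 samples whose fold enrichment was lower in that list. A strength of 90 thus marks a peak stronger than 90 percent of those regions in the same mouse. By fold enrichment, which is relative to the local background of a region, the strongest elements of Fos, Fosb and Jun were distal. The -log10 p of the peaks was 40.3 to 152 at Fos +0.1 kb and 142 to 312 at Fos +12.2 kb. For Fosb and Jun the order by -log10 p was not compared. Fos +12.2 kb (chr12:85485780-85486409) had a mean strength of 92.2 over the 18 samples and Fos -18.4 kb (chr12:85455012-85455914) of 85.9, whereas the promoter region Fos +0.1 kb had 23.3. At Fosb, the regions Fosb -10.0 kb (chr7:19319745-19320379) and Fosb -17.2 kb (chr7:19327006-19327564) had mean strengths of 90.2 and 82.4, and the promoter region Fosb -0.2 kb 23.4. At Jun, Jun -30.4 kb and Jun -42.7 kb had 73.4 and 53.2, and the promoter region Jun -0.2 kb 33.7.

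Among regions at or nearest the TSS, that of Atf3 was the strongest by fold enrichment (Atf3 +0.2 kb, 58.5). It was followed by Jund +1.3 kb (42.8), Jun -0.2 kb (33.7), Batf3 -0.1 kb (28.9), Fosb -0.2 kb (23.4), Fos +0.1 kb (23.3), Maff -0.2 kb (14.2) and Junb +0.2 kb (10.6). The sample ranges of neighbours in this order overlapped. The region of Jund lies inside the gene and does not reach its TSS. Fosl1 and Fosl2 had little signal at their TSS, with a peak in 11 samples and a mean strength of 3.24 for Fosl1, and a peak in 3 samples and a mean of 0.021 for Fosl2. Fosl2 instead had Fosl2 -1.0 kb (30.3) and the intronic Fosl2 +7.3 kb (30.4) open in all 18 samples. The strongest region of Maff was Maff +9.4 kb, in an exon, with 23.1.

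**Figure D2:**
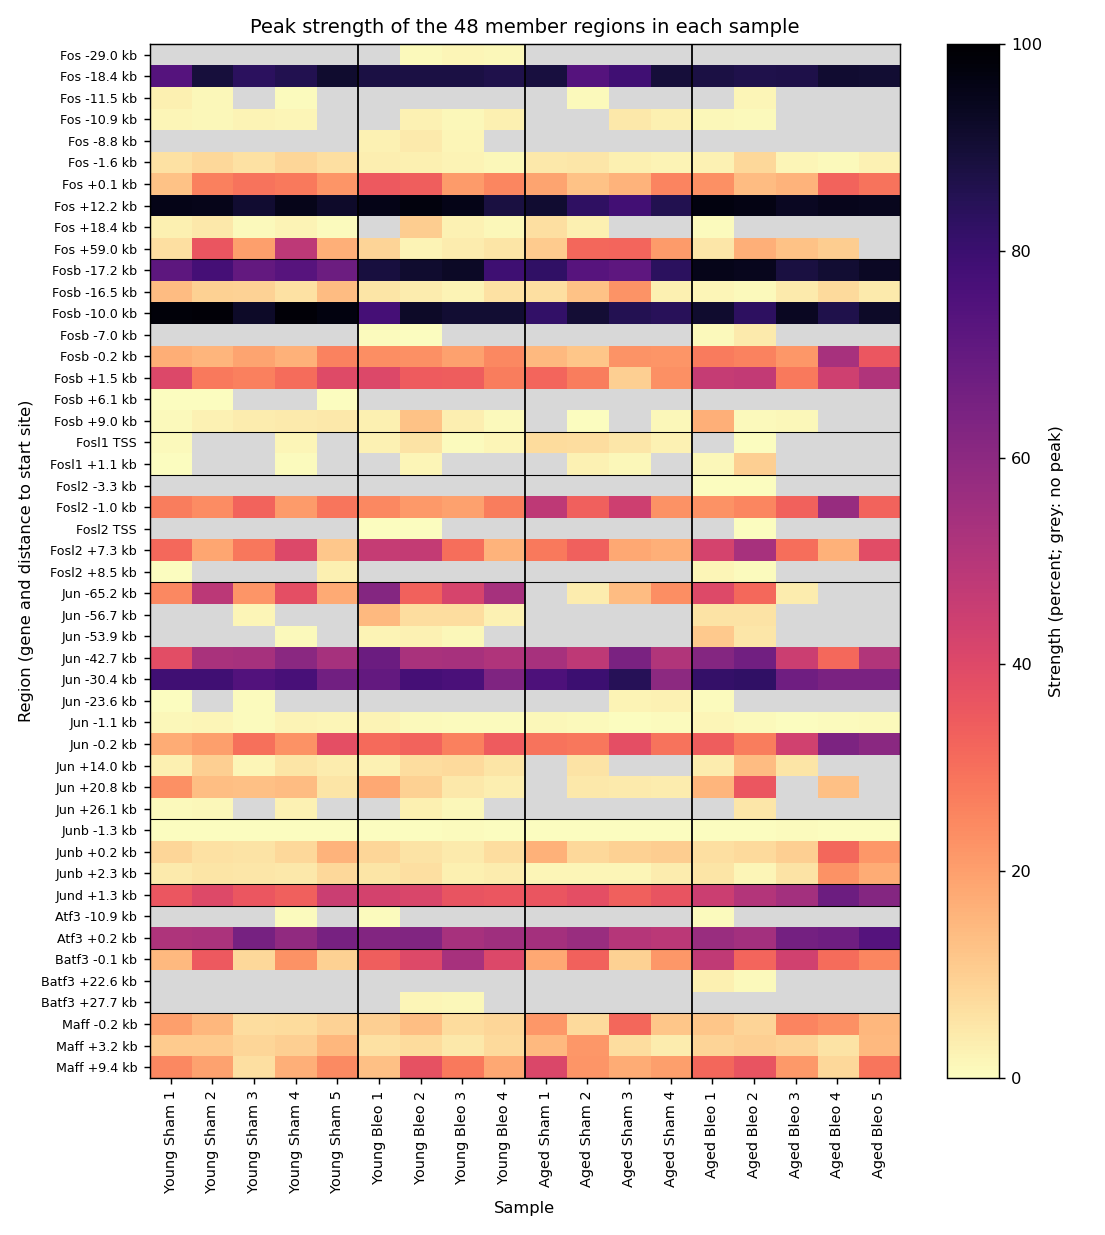
Rows are the 48 regions ordered by gene and position, columns are the 18 samples by group, and colour is the strength in percent, with grey where no peak was called. The darkest rows are distal regions of Fos and Fosb, and grey cells are most numerous in Aged Bleo 3 to 5 and Aged Sham 1.

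The presence or absence of a peak was compared first, region by region, with two-sided Fisher's exact tests over mice. In Young Bleo compared with Young Sham, 3 of 48 regions were called at an unadjusted p of 0.05 or less, all with more peaks after bleomycin. Of all regions, 3.98% were called higher and 5.94% in either direction. In part, this count and its direction rest on regions that entered the 48 only through their Young Bleo peaks. Fos -29.0 kb and Fos -8.8 kb were each found in 3 of the 4 Young Bleo mice and in no mouse of the other groups. Both therefore entered the consensus only through Young Bleo, so their calls cannot test a difference between groups. Their peaks were weak, with 12 to 15 fragments at the summit of Fos -29.0 kb and 15 to 18 at that of Fos -8.8 kb. Jun -56.7 kb had a peak in 4 of 4 Young Bleo, 1 of 5 Young Sham, 0 of 4 Aged Sham and 2 of 5 Aged Bleo samples, with 14 to 26 fragments.

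In the other 3 comparisons a single region was called each, with fewer peaks in the group named first. Jun +14 kb had a peak in 1 of 4 Aged Sham and 5 of 5 Young Sham samples (4.9% of all regions were called lower and 5.17% in either direction). Fos +18.4 kb had a peak in 1 of 5 Aged Bleo and 5 of 5 Young Sham samples (3.01% called lower, 3.21% in either direction). The TSS region of Fosl1 had a peak in 1 of 5 Aged Bleo and 4 of 4 Aged Sham samples (0.41% called lower, 0.885% in either direction). Each of these 6 exact tests gave p = 0.0476. With equal numbers of peaks from each list none of the 6 regions was called. After Benjamini-Hochberg adjustment over 47338 regions no region of the genome was called in any comparison, the smallest adjusted p being 0.535 in Young Bleo compared with Young Sham. Over all 47338 regions, the percent with a peak was 59.2 in Aged Sham against 71.9 in Young Sham (exact permutation p = 0.0556), and 63 in Aged Bleo against 75.1 in Young Bleo. The part of depth in the calls at Jun +14 kb and Fos +18.4 kb was not tested.

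The number of the 48 regions with a peak per mouse was 34.8 ± 2.59 in Young Sham (SD, n = 5, range 32 to 38), 37.2 ± 2.99 in Young Bleo (n = 4, 34 to 41), 30.5 ± 2.52 in Aged Sham (n = 4, 27 to 33) and 31.8 ± 8.07 in Aged Bleo (n = 5, 24 to 41). The difference between Aged Sham and Young Sham was -4.3 regions (two-sided exact permutation test, p = 0.0397, 0.159 after Benjamini-Hochberg adjustment over 4 comparisons). With equal numbers of peaks from each list it was -1.2 (exact permutation p = 0.103), and p was 0.0635 to 0.0873 with stricter peaks or with peaks covering 50% of a region. Differences from Young Sham were 2.45 regions in Young Bleo (exact permutation p = 0.278, and -1.2 regions with equal peak numbers) and -3 in Aged Bleo (exact permutation p = 0.468), and Aged Bleo differed from Aged Sham by 1.3 (exact permutation p = 0.762). Aged Bleo was split, with 40 and 41 regions in replicates 1 and 2 and 24 to 28 in replicates 3 to 5, which also had the fewest peaks of that group. In lane 7, the only lane with 3 samples of each of 2 groups, Young Bleo had 38.3 regions and Aged Sham 30.3 (exact permutation p = 0.1, the smallest that 3 against 3 allows).

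**Figure D3:**
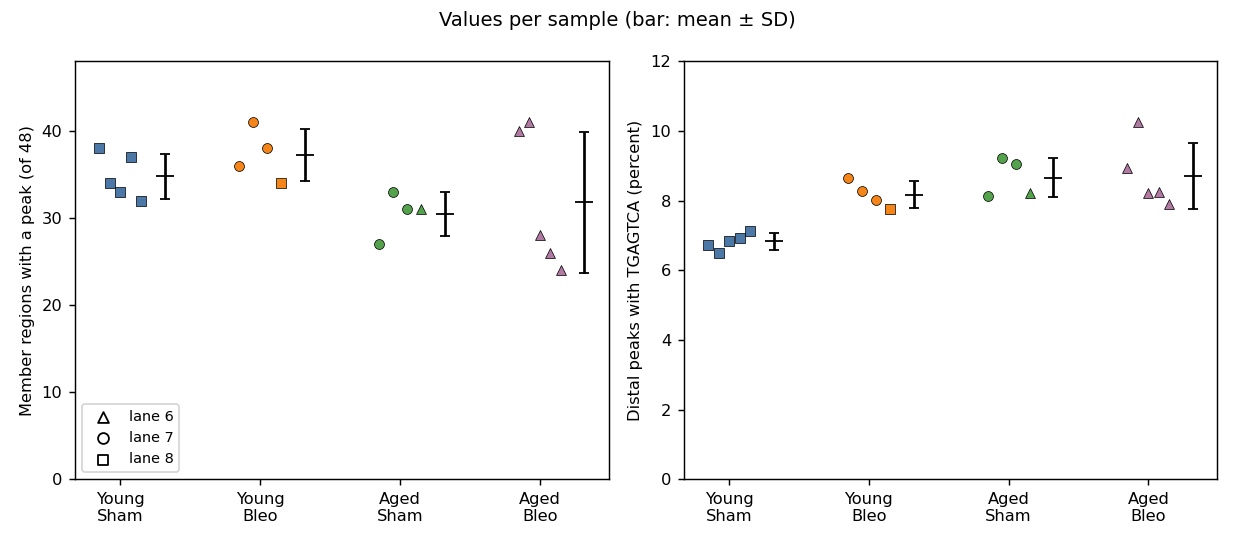
Points are samples, with the marker shape giving the sequencing lane and the bar the mean ± SD of each group. The left panel shows the number of the 48 regions with a peak (24 to 41) and the right panel the percent of distal peaks with TGAGTCA, in which the 5 Young Sham samples (6.51 to 7.14) lie below all others.

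Strength was tested only in the 24 regions with a peak in every sample. The 24 regions that were not open in all mice, most of them weak, were left out of this test by choice. Among them, Fos +59.0 kb had a peak in 17 samples. Its mean strength was 25.6 ± 16.6 in Young Sham, 5.04 ± 2.85 in Young Bleo, 23.9 ± 10.2 in Aged Sham and 11.1 ± 4.94 in Aged Bleo, and was not tested. A single limma fit over the 17432 regions, with p-values adjusted by Benjamini-Hochberg over all of them, gave the differences below in percentage points of strength with their SE.

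Ranked by fold enrichment, the clearest change was at Fosb -17.2 kb, which holds the TGAGTCA site 63 bp from its summit. Its strength was 71.6, 77.6, 70.0, 73.4 and 67.9 in the Young Sham samples, 88.6, 91.2, 92.8 and 79.1 in Young Bleo, 82.2, 73.4, 71.4 and 83.4 in Aged Sham and 95, 94.2, 88.0, 90.3 and 93.3 in Aged Bleo. Every Young Bleo and every Aged Bleo sample lay above every Young Sham sample, and every Aged Bleo sample lay above every Aged Sham sample. Compared with Young Sham, strength rose by 15.8 ± 3.05 in Young Bleo (limma, adjusted p = 0.0094) and by 20.1 ± 2.88 in Aged Bleo (adjusted p = 0.000928). Compared with Aged Sham it rose by 14.6 ± 3.05 in Aged Bleo (adjusted p = 0.0468). The size and the calls depended on the set of regions used for ranking. Against all regions with a peak the differences were 8.43 for Young Bleo and 9.46 for Aged Bleo compared with Young Sham and 9.12 for Aged Bleo compared with Aged Sham, of which only the second was called (adjusted p = 0.0959, 0.0116 and 0.0613). The last was also not called without the trend in eBayes (adjusted p = 0.0608). The fold enrichment over local background was 17.9 to 21.3 in Young Sham, 20.3 to 26.1 in Young Bleo, 18.3 to 21.3 in Aged Sham and 22.3 to 30.1 in Aged Bleo. The comparisons with Young Sham held when each of the 18 samples was left out in turn, with adjusted p of 0.003 to 0.0456 for Young Bleo and 0.0005 to 0.00303 for Aged Bleo. The comparison with Aged Sham was lost without any 1 of 11 samples (Young Sham 1 to 4, Young Bleo 1, Aged Sham 1 to 3 and Aged Bleo 1, 2 and 5, adjusted p up to 0.104).

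The same region was set against its own lane. Bleo samples lay above Sham samples in lane 6 (88.0 to 95 against 83.4), in lane 7 (88.6 to 92.8 against 71.4 to 82.2) and in lane 8 (79.1 against 67.9 to 77.6), with a single sample on one side in lanes 6 and 8. Of the 24 regions, 2 showed this order in all 3 lanes, Fosb -17.2 kb and Batf3 -0.1 kb, where 0.625% of the 17432 regions did, and in none were all Bleo samples below the Sham samples of their lane (0.803% of all). With lane as a term in the fit, the difference of Fosb -17.2 kb was 6.98 in Young Bleo and 0.556 in Aged Bleo compared with Young Sham and 8.79 in Aged Bleo compared with Aged Sham (adjusted p = 0.785, 0.989 and 0.639). No member region was called with that term, and at most 1 of the 17432 regions was in any comparison. The other calls, given below, changed in size as follows when lane was added. Batf3 -0.1 kb in Young Bleo had 22.6 against 23.8 without lane, and Fos +12.2 kb in Aged Sham -18.1 against -9.51. In Aged Bleo compared with Aged Sham, Fos +12.2 kb had 9.6 against 11. Compared with Young Sham, Aged Bleo differed by 27.5 against 20 at Jun -0.2 kb and by 12.8 against 17.8 at Jund +1.3 kb. The median SE over all regions rose from 4.8 to 13.2 for Aged Bleo compared with Young Sham, groups that share no lane.

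Fosb -16.5 kb and Fosb -10.0 kb, the neighbours of this element, were not called by strength as defined above, but each passed the threshold in some comparisons under other scalings. Fosb -10.0 kb was at 98.2, 98.5, 92.3, 98.5 and 96.9 in Young Sham, 77.4 to 92.4 in Young Bleo, 81.8 to 89.9 in Aged Sham and 83.0 to 93.4 in Aged Bleo. The differences from Young Sham were -11.5 ± 2.79 for Aged Sham, -9.12 ± 2.79 for Young Bleo and -7.55 ± 2.63 for Aged Bleo, none past the threshold (limma, adjusted p = 0.0528, 0.0826 and 0.0715). All 3 passed with normal scores of the ranks (adjusted p = 0.01, 0.0113 and 0.00769) and by -log10 p (adjusted p = 0.00531, 0.014 and 0.0349). Fosb -16.5 kb was weak, at 10.5 ± 3.33 in Young Sham, 4.32 ± 1.77 in Young Bleo, 11.2 ± 8.44 in Aged Sham and 3.67 ± 2.53 in Aged Bleo. Its difference between Aged Bleo and Young Sham was -6.82 (limma, adjusted p = 0.118), and -26.9 when ranked against all regions with a peak, which was called (adjusted p = 0.00371).

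At Fos +12.2 kb, the CArG-box element, strength was 95.7, 95.3, 91.0, 95.2 and 91.8 in Young Sham, 95.6, 97.5, 95.6 and 88.1 in Young Bleo, 90.7, 82.5, 78.4 and 85.7 in Aged Sham and 97.0, 96.3, 93.6, 94.9 and 94.5 in Aged Bleo. Aged Sham was the lowest group and overlapped neither Young Sham nor Aged Bleo. Strength fell by 9.51 ± 2.15 in Aged Sham compared with Young Sham (limma, adjusted p = 0.0415) and rose by 11 ± 2.15 in Aged Bleo compared with Aged Sham (adjusted p = 0.041). Young Bleo and Young Sham overlapped, with a difference of 0.398 ± 2.15 (adjusted p = 0.956). Both calls lay close to the threshold, and neither was made without the trend in eBayes (adjusted p = 0.0683 and 0.0642). With normal scores of the ranks the first was not called either (adjusted p = 0.0675), and ranked against all regions with a peak the second was smaller, at 6.85 (adjusted p = 0.0434). Leaving out single samples ended the first in 8 of 18 cases (Young Sham 1 to 4, Young Bleo 3 and Aged Sham 2 to 4, adjusted p up to 0.115) and the second in 9 (Young Sham 1 to 4, Aged Sham 2 and 3 and Aged Bleo 1, 2 and 5, up to 0.0868).

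Batf3 -0.1 kb, the promoter of Batf3, was at 14.5, 35.1, 8.01, 22.9 and 9.66 in Young Sham, 33.6, 40.0, 53.2 and 40.6 in Young Bleo, 18.2, 33.0, 9.76 and 21.8 in Aged Sham and 47.6, 32.2, 43.4, 30.6 and 25.3 in Aged Bleo. The Bleo groups were higher at both ages, with overlap in the range of 25.3 to 35.1. It rose by 23.8 ± 6.37 in Young Bleo compared with Young Sham (limma, adjusted p = 0.0475), and the difference of Aged Bleo from Aged Sham was 15.1 ± 6.37 (adjusted p = 0.246). The call in Young Bleo was lost without any 1 of 12 samples (Young Sham 1, 3, 4 and 5, all 4 Young Bleo samples, Aged Sham 1 and 4 and Aged Bleo 2 and 3, adjusted p up to 0.138), with ranks against all regions with a peak (adjusted p = 0.362) and without the trend in eBayes (adjusted p = 0.0512).

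Jund +1.3 kb and Jun -0.2 kb were higher in Aged Bleo than in Young Sham. Jund +1.3 kb was at 33.4 to 45.2 in Young Sham, 35.8 to 42.8 in Young Bleo, 33.3 to 38.1 in Aged Sham and at 44.9, 50.6, 54.3, 67.7 and 61.9 in Aged Bleo. Its rise compared with Young Sham was 17.8 ± 4.56 (limma, adjusted p = 0.02, 0.0514 without Young Sham 4), and the difference from Aged Sham was 19.9 ± 4.84 (adjusted p = 0.0584, called without the trend in eBayes with 0.044 and against all regions with a peak with 0.0376). Jun -0.2 kb was at 17.4, 20, 30, 23 and 38.2 in Young Sham, 26.3 to 34.7 in Young Bleo, 28.4 to 38.2 in Aged Sham and 34.0, 27.2, 43.6, 64.0 and 60.2 in Aged Bleo. It rose by 20 ± 6.31 in Aged Bleo compared with Young Sham (limma, adjusted p = 0.0488), a call that was lost without any 1 of 15 samples (all but Young Sham 5 and Aged Bleo 1 and 2, adjusted p up to 0.117). The difference of Jun -0.2 kb between Aged Bleo and Aged Sham was 14.6 ± 6.69 (adjusted p = 0.289), and 3.7 without Aged Bleo 4 and 5 (adjusted p = 0.774). Ranked against all regions with a peak, the differences from Young Sham were 6.3 for Jund +1.3 kb and 8.24 for Jun -0.2 kb, neither called (adjusted p = 0.157 and 0.092). The highest values of both regions came from Aged Bleo 4 and 5, the samples of that group with the fewest peaks. Without these samples the differences from Young Sham were 11.9 for Jund +1.3 kb and 9.15 for Jun -0.2 kb, neither called (adjusted p = 0.11 and 0.299), while that of Fosb -17.2 kb was 20.3 (adjusted p = 0.00504). Compared with Aged Sham, the remaining Aged Bleo samples differed by 14.8 at Fosb -17.2 kb and by 11.3 at Fos +12.2 kb, neither called (adjusted p = 0.0603 and 0.0514).

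**Figure D4:**
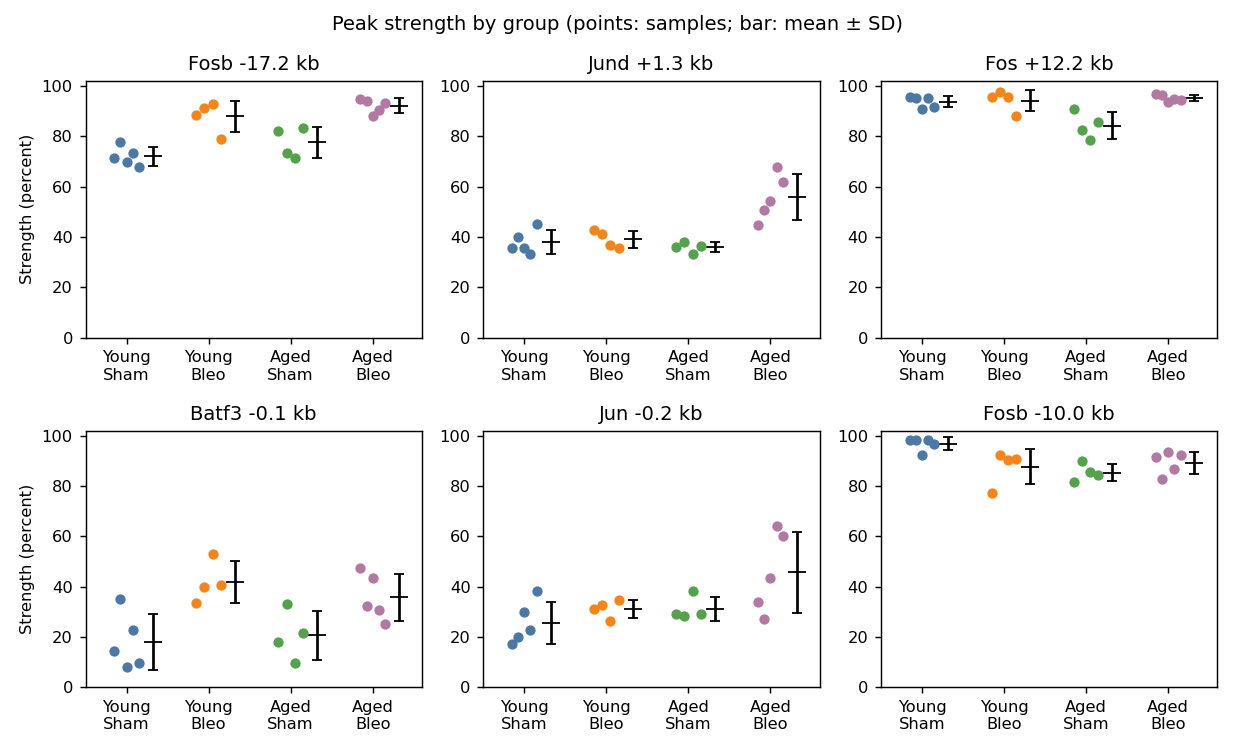
Points are samples, placed by group on the horizontal axis and by strength in percent on the vertical axis, with the mean ± SD beside them. In Fosb -17.2 kb and Batf3 -0.1 kb the Bleo groups are higher at both ages, in Fos +12.2 kb Aged Sham is the lowest group, in Fosb -10.0 kb, the uncalled region nearest the threshold, Young Sham is the highest, and in Jund +1.3 kb and Jun -0.2 kb Aged Bleo 4 and 5 reach 60.2 to 67.7.

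In all, strength fell in 1 of 24 regions in Aged Sham compared with Young Sham (Fos +12.2 kb), where 0.539% of all tested regions were called lower and 0.998% in either direction. It rose in 2 of 24 in Young Bleo compared with Young Sham (Fosb -17.2 kb and Batf3 -0.1 kb, with 1.32% of all regions higher and 3.11% in either direction). In Aged Bleo compared with Young Sham it rose in 3 of 24 (Fosb -17.2 kb, Jund +1.3 kb and Jun -0.2 kb), with 5.43% of all regions called higher and 10.6% in either direction. Ranked against all regions with a peak, the 3 calls of this comparison were Fosb -17.2 kb, higher, and Fos -1.6 kb (-19.8, limma, adjusted p = 0.0449) and Fosb -16.5 kb, both lower. In Aged Bleo compared with Aged Sham it rose in 2 of 24 (Fos +12.2 kb and Fosb -17.2 kb, with 0.304% of all regions higher and 0.671% in either direction). The comparisons share control samples. Median differences of the 24 regions were -0.449, 0.251, 4.96 and 4.54 points in this order, against 0.434, -0.0295, 0.343 and 0.11 over all regions. Those of the 8 regions at or nearest a TSS were 0.696, 2.67, 10.4 and 12.8. Of these 8, 5 are annotated as promoter and 3 (Junb +0.2 kb, Jund +1.3 kb and Atf3 +0.2 kb) as UTR, and the medians of all 7983 promoter regions were 1.02, -0.0694, 0.781 and -0.131. Ranking against all regions with a peak moved the median of all 17432 regions to -3.66 in Aged Sham and -3.47 in Aged Bleo compared with Young Sham. On that scale the median of the 24 regions in Aged Bleo was -0.872 compared with Young Sham, with 15 of 24 lower, and 4.25 compared with Aged Sham, and those of the 8 regions were 1.98 and 9.89. The direction of the first summary therefore depended on the ranking. Without Aged Bleo 4 and 5 the medians were 1.8 and 3.68 for the 24 regions and 5.19 and 5.12 for the 8.

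**Figure D5:**
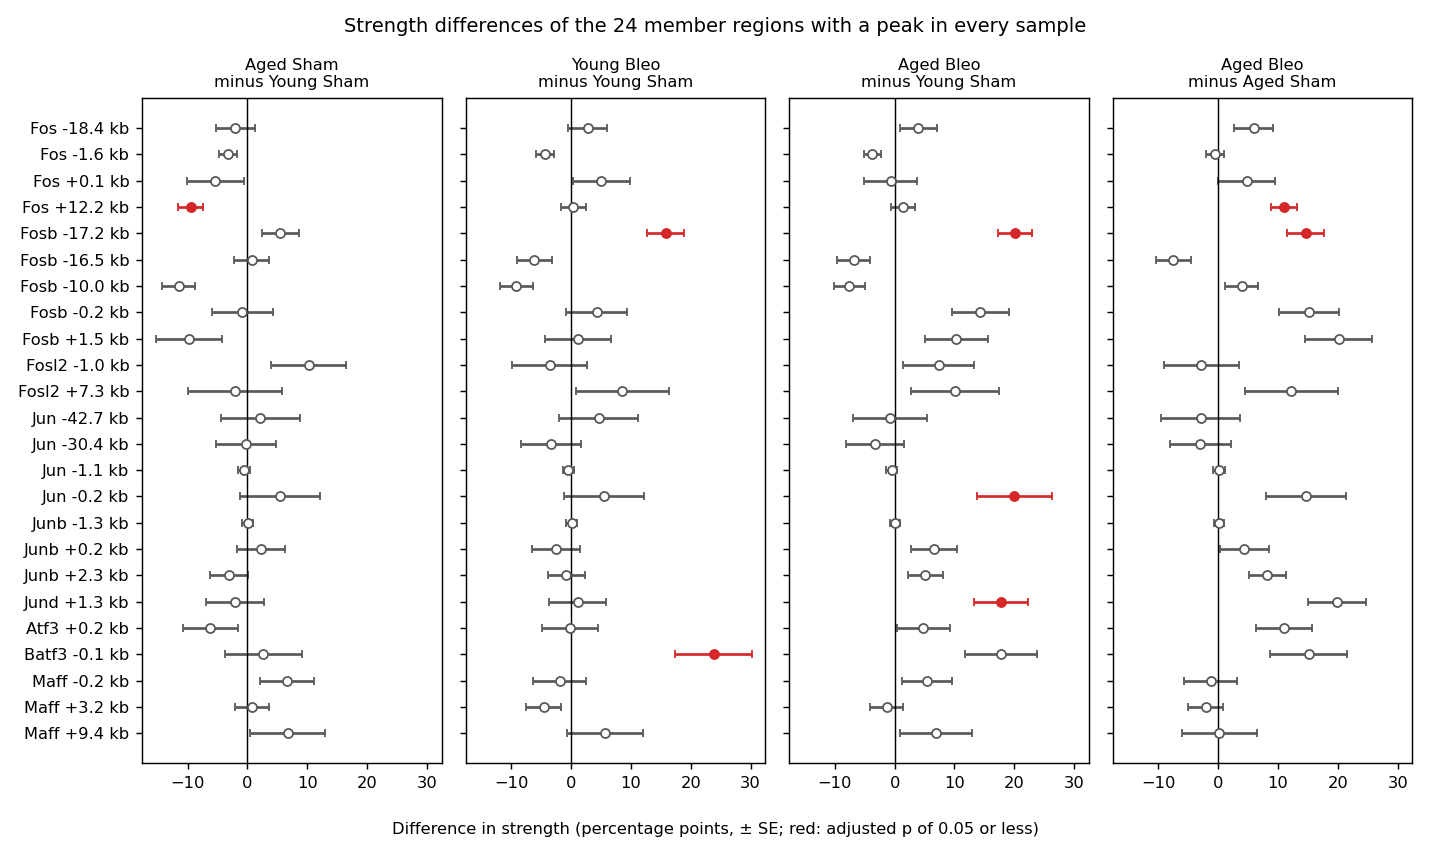
Each point is the difference in strength in percentage points with its SE for 1 of the 24 regions in the comparison named above the panel, in red where the adjusted p was 0.05 or less. Red points lie to the right of 0 except Fos +12.2 kb in Aged Sham compared with Young Sham.

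Ranking the peaks by -log10 p in place of fold enrichment, a measure that gives more weight to the number of fragments, gave more calls in every comparison, for the members and for all regions. It called 2 of 24 regions, both lower, in Aged Sham compared with Young Sham (6.14% of all regions in either direction, 3% lower), 7 in Young Bleo (6 higher and 1 lower, with 15.7% in either direction, 7.93% higher and 7.78% lower), 10 in Aged Bleo compared with Young Sham (8 higher and 2 lower, with 28.5% in either direction, 13.7% higher and 14.7% lower) and 11, all higher, in Aged Bleo compared with Aged Sham (15.5% in either direction, 7.86% higher). The 11 regions were Fos -18.4 kb, Fos +12.2 kb, Fosb -17.2 kb, Fosb -0.2 kb, Fosb +1.5 kb, Jun -0.2 kb, Junb +0.2 kb, Junb +2.3 kb, Jund +1.3 kb, Atf3 +0.2 kb and Batf3 -0.1 kb, with differences of 3.29 to 19.5 points. On this scale Jund +1.3 kb rose by 7.94 ± 1.06 in Aged Bleo compared with Aged Sham (limma, adjusted p = 0.000172), by 7.73 ± 0.998 compared with Young Sham (adjusted p = 2.62e-05) and by 4.89 ± 1.06 in Young Bleo compared with Young Sham (adjusted p = 0.00497). For Fosb -17.2 kb the limma adjusted p was larger in each, at 0.00455, 0.00161 and 0.0267 in the same order. The decrease of Fos +12.2 kb in Aged Sham was not called on this scale (adjusted p = 0.426), while Fosb -10.0 kb fell by 10.3 ± 1.97 (adjusted p = 0.00531). With lane as a term, none of the 24 was called by -log10 p either. The mean bleomycin effect over both ages, described below, called 12 of 24 on this scale (11 higher), with 29.4% of all regions called, 14.6% higher and 14.8% lower.

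Whether bleomycin acted differently at 18 and at 2 months was tested directly by the interaction of age and treatment. None of the 24 regions and none of the 17432 was called (0%, limma, smallest adjusted p = 0.14). By -log10 p, 0.109% of all regions were called and no member. At an unadjusted p of 0.05 or less, 4 of 24 regions and 9.33% of all regions passed. These 4 were Fos +12.2 kb (difference of effects 10.6 ± 3.04, adjusted p = 0.302), Fosb -10.0 kb (13.1 ± 3.94, 0.324), Jund +1.3 kb (18.8 ± 6.84, 0.411) and Fosb +1.5 kb (18.9 ± 7.88, 0.476). The mean of the bleomycin effects over both ages, a contrast chosen after seeing the data, called 3 of 24 regions, all higher, with 6.54% of all regions called in either direction and 2.97% higher. Fosb -17.2 kb rose by 15.2 ± 2.16 (limma, adjusted p = 0.00118), Batf3 -0.1 kb by 19.5 ± 4.51 (adjusted p = 0.0161) and Fos +12.2 kb by 5.68 ± 1.52 (adjusted p = 0.0323). Ranked against all regions with a peak, Fosb -17.2 kb was called again (8.77, adjusted p = 0.00804), Batf3 -0.1 kb and Fos +12.2 kb were not (adjusted p = 0.129 and 0.0658), and Jund +1.3 kb, higher (8.13, 0.0426), and Fosb -16.5 kb, lower (-15.3, 0.0228), were called in addition. Fosb -16.5 kb was also called lower with normal scores (adjusted p = 0.0425), and without the trend in eBayes that of Fos +12.2 kb was lost (adjusted p = 0.0658). The calls of Fosb -17.2 kb and Batf3 -0.1 kb held without each of the 18 samples, and that of Fos +12.2 kb was lost without any 1 of 7 (Young Sham 3, Young Bleo 1 to 3, Aged Sham 2 and 3 and Aged Bleo 1, adjusted p up to 0.0728).

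No region of Atf3, Maff or Junb and not the Fos promoter was called by strength as defined above. Ranked against all regions with a peak, Junb +2.3 kb was lower in Aged Sham than in Young Sham (-20.1, limma, adjusted p = 0.0445, against -3.08 and 0.678). By -log10 p, Junb -1.3 kb was higher than in Young Sham by 20.7 in Young Bleo and 21.6 in Aged Bleo (limma, adjusted p = 0.00984 and 0.00221). By fold enrichment this region was at the bottom of the scale, with group means of 0.157 to 0.272. There it differed by only 0.104 and 0.116 (limma, adjusted p = 0.973 and 0.945). Junb +0.2 kb was higher by 8.36 and 12.3 by -log10 p (adjusted p = 0.0303 and 0.000911), against -2.5 and 6.59 by fold enrichment. Also by -log10 p, Junb +2.3 kb and Atf3 +0.2 kb were higher in Aged Bleo than in Young Sham, by 10.9 and 3.83 (adjusted p = 0.0297 and 0.0111). Atf3 +0.2 kb was at 58.6 ± 6.5 in Young Sham, 58.4 ± 4.81 in Young Bleo, 52.4 ± 3.81 in Aged Sham and 63.4 ± 7.86 in Aged Bleo, and the difference of Aged Bleo from Aged Sham was 11 ± 4.64 (limma, adjusted p = 0.249). Fos +0.1 kb was at 23.6 ± 6.68, 28.6 ± 6.81, 18.2 ± 5.48 and 22.9 ± 8.16 in the same order, Maff -0.2 kb at 11.6 ± 5.71, 9.75 ± 2.71, 18.3 ± 10.7 and 17 ± 7.14, and Junb +0.2 kb at 8.82 ± 4.16, 6.32 ± 1.83, 11.1 ± 3.63 and 15.4 ± 10.9. The groups overlapped at each of these promoters. Jun -30.4 kb, the strongest element of Jun by fold enrichment, was likewise level, at 75.1 ± 5.01, 71.7 ± 6.74, 74.8 ± 10.6 and 71.8 ± 9.24.

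The share of open sites with the AP-1 sequence was then measured across each list, as a readout in which the 48 regions play almost no part. Among peaks whose summit was more than 1000 bp from any TSS, TGAGTCA lay within the 200 bp around the summit in 6.83% ± 0.235 (SD) of those of Young Sham (n = 5), 8.17% ± 0.388 of those of Young Bleo (n = 4), 8.66% ± 0.567 of those of Aged Sham (n = 4) and 8.71% ± 0.943 of those of Aged Bleo (n = 5). None of the other groups overlapped Young Sham. The share was higher than in Young Sham by 1.34 percentage points for Young Bleo, 1.83 for Aged Sham and 1.88 for Aged Bleo (two-sided exact permutation test, p = 0.00794 each, the smallest these group sizes allow for non-overlapping groups, adjusted p = 0.0106). Over whole peaks in place of the 200 bp window, the difference of Aged Bleo from Young Sham was 1.06 points and did not pass (exact permutation p = 0.103). With promoter peaks included, the differences were 0.83 for Aged Sham (exact permutation p = 0.00794) and 1.03 for Aged Bleo (exact permutation p = 0.0397). Aged Bleo and Aged Sham differed by 0.0549 points (exact permutation p = 0.929). With the same number of peaks from each list, the means were 7.63%, 9.33%, 9.41% and 9.57%. Within lane 8, the Young Bleo sample had 7.75% and the Young Sham samples 6.51 to 7.14%. Within lane 6, the Aged Sham sample had 8.21% and the Aged Bleo samples 7.9 to 10.3%, and within lane 7 Young Bleo had 8.31% and Aged Sham 8.81% (exact permutation p = 0.3). All Young Sham samples were in lane 8, so for the aged groups age and lane cannot be told apart. Young Bleo shared lane 8 with Young Sham through 1 sample only, so bleomycin and lane are also largely mixed in that comparison.

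Related genes were taken from 3 lists, and a promoter region open in all 18 samples was found for 12 of 12 kinases upstream of AP-1, 6 of 6 serum response genes and 14 of 14 other immediate-early genes. Of these promoters, 4 were called by fold enrichment, each higher in Aged Bleo compared with Young Sham and none in the other 3 comparisons. In Aged Bleo compared with Young Sham, 10.5% of all 7983 promoter regions were called in either direction, and 5.43% of all 17432 tested regions were called higher. Whether these promoters differ from that background was not tested. The 4 were Ier2 (7.35 ± 1.88, limma, adjusted p = 0.02), Ier5 (12.4 ± 3.42, 0.0282) and Zfp36l1 (14.6 ± 4.61, 0.0488) among the immediate-early genes, and Mapk3, which encodes the kinase ERK1 (18.8 ± 5.87, 0.047), among the kinases. None of the serum response genes was called. Ier5 was also higher in the mean of both bleomycin effects (11.7 ± 2.56, limma, adjusted p = 0.0122), where 5.26% of all promoter regions were called in either direction.

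Across the 18 samples, the promoter region of another gene whose strength followed that of the member most closely was Mrpl34 for Jun (Pearson r = 0.962), Gm44505 for Junb (0.952), Mus81 for Fosb (0.932), Ddx5 for Jund (0.913), Dnajc5 for Batf3 (0.875), C230037L18Rik for Maff (0.847), Psma2 for Atf3 (0.801) and Retreg3 for Fos (0.753). These are the highest of 7983 promoter regions and describe these samples only, which share lanes and depth. The regions nearest the TSS of Fosl1 and Fosl2 were not open in all 18 samples and were not compared.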

How the data were processed

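Per the study's methods and the labels, the authors aligned Omni-ATAC-seq read pairs with BWA (mm10), removed duplicates and called peaks per mouse with MACS2 at an FDR of 1%. Control libraries and a Tn5 shift are not given in the sources used here. The deposited fold enrichment is a ratio of summit coverage to local background within a library, and the deposited -log10 p and q values come from the authors' Poisson test in MACS2. The deposited score was not used. None is scaled between libraries, and the lists hold no read counts, so the authors' DiffBind analysis was not repeated.

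Nuclear peaks of the 18 lists were merged where they overlapped by 1 bp (54619 regions), and the 7281 with a peak in 1 sample were dropped, as were 19 mitochondrial peaks. Regions were annotated by midpoint with 45756 RefSeq NM and NR transcripts, promoters running from 1000 bp before to 100 bp after a TSS. Summit fragments were recovered from fold enrichment and -log10 p, and were whole within 0.005 of -log10 p for at least 99.989% of peaks with -log10 p up to 250.0. Open sites too weak for a call at these depths are missing.

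Presence was tested with Fisher's exact test, single values per mouse with exact permutation tests, and strength with limma 3.58.1 (lmFit on 4 group means of 18 samples, eBayes with trend, R 4.3.3). Fisher's test and limma were first run on simulated data drawn independently, with no effect of lane or depth, so they do not test such effects. Named are the 10 members, their TSS and strongest regions, every region called, and, of the related genes, those whose promoter was called. A further list, of other bZIP factors, is not reported here. Members, gene lists and motifs were chosen with earlier results of these data known. The sources used here do not state that equal replicate numbers in different groups are paired.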

Additional observations from a re-analysis of the deposited data

Results flagged for a closer look

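In 104 group-wise checks (the 24 regions open in every sample, the number of member regions and the TGAGTCA share, in 4 groups each), 8 values stood apart from the rest of their group by Dixon's test at its 95% limit, where chance gives about 1 in 20. At Jun -0.2 kb, Aged Sham 3 had a strength of 38.2 and the other Aged Sham samples 28.4 to 29.1. At Jun -42.7 kb, Young Bleo 1 had 68.2 and the others of its group 51.5 to 53.5. At Fosb -10.0 kb, Young Bleo 1 had 77.4 against 90.5 to 92.4, and Young Sham 3 had 92.3 against 96.9 to 98.5. At Fos -1.6 kb, Aged Bleo 2 had 7.95 against 1.08 to 2.67 in its group.

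The other 3 were at Junb. Junb +0.2 kb was at 15.9 in Young Sham 5 and at 5.69 to 8.53 in the other Young Sham samples, Junb +2.3 kb at 3.79 in Aged Sham 4, the only Aged Sham sample of lane 6, against 1.6 to 1.88, and Junb -1.3 kb at 0.41 in Young Bleo 3 against 0.198 to 0.227. No member region was called by the interaction of age and treatment, whose median SE over all regions was 7.2 points.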

How the results depend on the processing

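Presence calls rested on few weak peaks. The counts of 1, 3, 1 and 1 regions (Aged Sham, Young Bleo and Aged Bleo compared with Young Sham, then Aged Bleo compared with Aged Sham) became 2, 1, 0 and 0 with lists trimmed to equal length, and these were other regions (Jun +20.8 kb, Fosb +9.0 kb and Fos +59.0 kb), so every reported call was lost. The first became 2 and the second 4 with peaks covering 50% of the region or with fold enrichment of at least 5, sharing 1, and 2 or 3, regions with the reported calls, and the third became 0 in both and with -log10 q of at least 5. They were 0 to 1, 0 to 1, 1 to 2 and 0 to 1 without single samples.

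Strength calls, 1, 2, 3 and 2 in this order, became 2, 7, 10 and 11 by -log10 p (12 in place of 3 for the mean bleomycin effect). With lane as a term they became 0 in all, the mean effect included, by fold enrichment or -log10 p. By fold enrichment, the differences of these calls did not all shrink. Batf3 -0.1 kb had 22.6 with lane against 23.8 without in Young Bleo, and 18.3 against 19.5 in the mean effect. Fos +12.2 kb had -18.1 against -9.51 in Aged Sham. In the mean effect, Fosb -17.2 kb fell to 7.89 from 15.2 and Fos +12.2 kb to 2 from 5.68. The median SE of the mean effect over all regions rose from 3.6 to 5.85. Ranking against all regions gave 2 calls in Aged Sham (Fos +12.2 kb and Junb +2.3 kb) and 0 in Young Bleo, and 3 and 2 in the Aged Bleo comparisons, not all the reported regions. Normal scores gave 1 in Aged Sham (Fosb -10.0 kb, not Fos +12.2 kb) and 5 in Aged Bleo compared with Young Sham, and eBayes without trend 0 for Aged Sham, 1 for Young Bleo and 1 for Aged Bleo compared with Aged Sham. Without Aged Bleo 4 and 5, an alternative added after seeing the data, 1 region was called in Aged Bleo compared with Young Sham and 0 compared with Aged Sham. Without single samples the counts were 0 to 2, 1 to 2, 1 to 5 and 0 to 3, 2 to 4 for the mean effect, and 0 for the interaction. Junb +0.2 kb in Young Bleo was -2.5 by fold enrichment and 8.36 by -log10 p, where it was called (limma, adjusted p = 0.0303). Fosb -17.2 kb in Aged Bleo compared with Young Sham was -0.878 by -log10 p with lane as a term. The cause of these shifts was not tested.

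Deviations of same-numbered samples had correlations of -0.193 to 0.335, which cannot show whether the samples were paired. The sources used here state no pairing by replicate number, so the replicate block is given as an alternative only. With the block, 1 region was called in Young Bleo and 0 in Aged Bleo compared with Aged Sham, and the other counts stayed at 1 and 3. In the paired exact sign-flip tests of this block the smallest possible p is 0.125 for 4 pairs and 0.0625 for 5, which the differences in member regions (-5 in Aged Sham) and in TGAGTCA share (1.9 for Aged Sham, 1.42 for Young Bleo and 1.88 for Aged Bleo) could not pass.

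Member regions per mouse in Aged Sham differed by -2.95, -1.2, -4.5 and -2.5 with -log10 q of at least 5, equal peak numbers, 50% coverage and fold enrichment of at least 5, with exact permutation p of 0.0635 to 0.103, and by -5.13 to -3.13 without single samples. The difference in Young Bleo was -1.2 with equal peak numbers and 1.2 to 3.53 without single samples, that in Aged Bleo -5.3 to -1.05, and that from Aged Sham -0.1 with fold enrichment of at least 5 and -1 to 3.25 without single samples. The TGAGTCA difference of Aged Bleo was 1.06 from Young Sham (exact permutation p = 0.103) and -0.765 from Aged Sham over whole peaks. Over all peaks, promoters included, the differences from Young Sham were 0.83 for Aged Sham, 0.995 for Young Bleo and 1.03 for Aged Bleo. Without single samples the differences were 1.64 to 2, 1.18 to 1.48, 1.5 to 2.09 and -0.331 to 0.258.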
